A study of Homo sapiens with 74 samples.

Results

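MAZ, the Myc-associated zinc finger protein, was profiled by Cut&Run in HEK293T cells, a human embryonic kidney line that carries the SV40 large T antigen. Cells received a plasmid in which the EF1-alpha promoter drove MAZ with a C-terminal V5 tag, and 48 h later an antibody against V5 guided a nuclease to the DNA beside the tagged protein. The mock IP was the same V5 step on cells that had received no plasmid. The members described here are all peaks of both MAZ lists, each called by the authors against that mock IP. Replicate 1 held 371 peaks and replicate 2 held 1079, together 1450 of the 92122 peaks in 72 lists of 36 zinc finger proteins (ZFPs). The 2 MAZ samples are biological replicates from separate wells, and the read total of each library was not given in the sources used.

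MAZ is a C2H2 zinc finger transcription factor that recognises GC-rich DNA and is best known at promoters, where it can activate or repress. It has also been described beside CTCF, the zinc finger protein that holds the boundaries of chromatin loops. Its known binding word is written here as GGGAGGG (the MAZ word, read on both strands). In Cut&Run a peak is a place where released fragments pile up above the control, and its fold is that pile over the mock IP. Fold therefore compares places within a list and is not a count of molecules. Ranks and comparisons of fold between proteins, given below, set lists of unknown depth side by side and do not measure relative binding.

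Peaks of both lists that overlapped by at least 1 bp were merged into 1187 regions, of which 228 had a peak in each replicate. Of the peaks, 234 in replicate 1 (63.1%) and 257 in replicate 2 (23.8%) lay in the other list. Of these regions, 2 lay on MAZ exons and 1 on EEF1A1, whose promoter the plasmid carries, so plasmid and chromosome cannot be told apart there. The MAZ exon regions had folds of 129.4 and 92.79 in replicate 1 and of 178.0 and 123.6 in replicate 2, and the EEF1A1 region had folds of 129.5 and 158.0. By the lower of the 2 folds, MAZ was 32nd of 36 ZFPs at EEF1A1 and 32nd of the 34 ZFPs with a peak on their own coding exons, of which MBNL1 and TRIM55 had such peaks in 1 list and enter with that list's fold. Everything below concerns the other 225 regions.

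Peaks on the coding exons of another ZFP of the series were common: 53 of the 72 lists held at least 1, on a median of 2 genes and at most 7. MAZ replicate 2 had 1, on ZC3H3, with a fold of 4.573, and 18 lists of other ZFPs had one on MAZ exons, with folds of 3.848 to 7.855. In MAZ replicate 1, and not in replicate 2, a peak of 697 bp (chr1:26170038-26170734) lay on the coding exons of ZNF593 with a fold of 14.68. It began at the same base as the peaks of 788 and 792 bp that the ZNF593 lists held on their own gene, with folds of 2318 and 2450. The other lists with a peak on ZNF593 exons, those of CTCF, TRIM55, ZMAT3 and ZNF22, had folds of at most 5.422 there. The word Native stood in the peak names of MAZ replicate 2 and of both ZNF593 lists, and in no other list, while the names of MAZ replicate 1 carried a generic prefix in place of a protein name. What these facts contribute to the likeness of MAZ and ZNF593 lists given below was not tested.

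The sequences that carry the main classes of region follow, read from the hg38 genome. RNU1-2 is shown because the strongest peaks lay on genes identical to it, and TOMM20 because it was the strongest protein-coding promoter. No letters are marked in these.
RNU1-2, hg38 chr1:16895980-16896143, plus strand: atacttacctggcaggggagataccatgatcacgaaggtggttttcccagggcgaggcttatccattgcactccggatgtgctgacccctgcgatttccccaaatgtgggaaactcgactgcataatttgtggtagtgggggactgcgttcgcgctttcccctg
TOMM20 promoter, hg38 chr1:235128871-235129040, plus strand: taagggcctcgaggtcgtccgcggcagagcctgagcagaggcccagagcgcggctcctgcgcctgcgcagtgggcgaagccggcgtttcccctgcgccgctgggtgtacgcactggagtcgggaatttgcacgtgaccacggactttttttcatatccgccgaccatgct

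In the next set, capitals mark the MAZ word or its reverse complement. CARM1 and NAB2 show it once in a promoter, while MADCAM1 and GALNT9 show it 3 and 4 times inside a tandem repeat within an intron.
CARM1 promoter, hg38 chr19:10871170-10871370, plus strand: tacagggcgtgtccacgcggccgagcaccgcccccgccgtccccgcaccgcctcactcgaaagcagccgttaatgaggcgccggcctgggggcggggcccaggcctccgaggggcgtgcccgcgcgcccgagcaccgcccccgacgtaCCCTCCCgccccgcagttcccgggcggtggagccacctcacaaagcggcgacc
NAB2 promoter, hg38 chr12:57088711-57088911, plus strand: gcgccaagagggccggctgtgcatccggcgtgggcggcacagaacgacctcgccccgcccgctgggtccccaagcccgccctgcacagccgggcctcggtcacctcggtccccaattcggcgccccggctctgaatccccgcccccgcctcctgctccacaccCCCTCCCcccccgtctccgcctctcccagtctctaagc
MADCAM1 intron, hg38 chr19:491844-492044, plus strand: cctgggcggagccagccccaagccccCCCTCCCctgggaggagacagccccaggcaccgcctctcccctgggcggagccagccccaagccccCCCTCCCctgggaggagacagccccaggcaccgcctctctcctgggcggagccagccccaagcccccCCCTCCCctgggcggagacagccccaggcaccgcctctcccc
GALNT9 intron, hg38 chr12:132242945-132243145, plus strand: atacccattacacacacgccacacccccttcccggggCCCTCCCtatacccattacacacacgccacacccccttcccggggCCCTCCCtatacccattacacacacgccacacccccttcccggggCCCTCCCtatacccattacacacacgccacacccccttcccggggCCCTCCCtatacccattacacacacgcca

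In the last set, capitals mark the CTCF core pattern CCNNNAGNNGGCNC or its reverse complement, where N is any base. These promoters are the ones among the 83 regions described below that held it within 100 bp of a summit. Of the 3 matches in the whole NFE2L2 region, 1 is shown.
C14orf93 promoter, hg38 chr14:23007230-23007363, plus strand: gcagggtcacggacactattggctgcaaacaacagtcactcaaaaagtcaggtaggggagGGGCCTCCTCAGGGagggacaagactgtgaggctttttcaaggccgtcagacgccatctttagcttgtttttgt
NFE2L2 promoter, hg38 chr2:177263647-177263670, plus strand: gagcgCCACCAGGGGGCACcgcgt

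Most regions found in both replicates lay in repeated DNA. Of the 225, 104 (46.2%) were satellite-like, meaning at least 5 ATTCC or GGAAT pentamers, the unit of human satellites II and III, within 100 bp of a summit, and 38 (16.9%) lay on copies of the 45S rRNA gene. The other 83 were 13 regions at small RNA genes, 16 at protein-coding promoters (within 1 kb of an annotated transcription start site, TSS), 7 at other promoters, 23 distal regions within genes and 24 between genes. Most other regions were in 1 list: outside rRNA and satellite-like DNA, 98 regions were seen in replicate 1 alone and 724 in replicate 2 alone. At protein-coding promoters the numbers were 24 and 180, against 16 found in both.

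**Figure D1:**
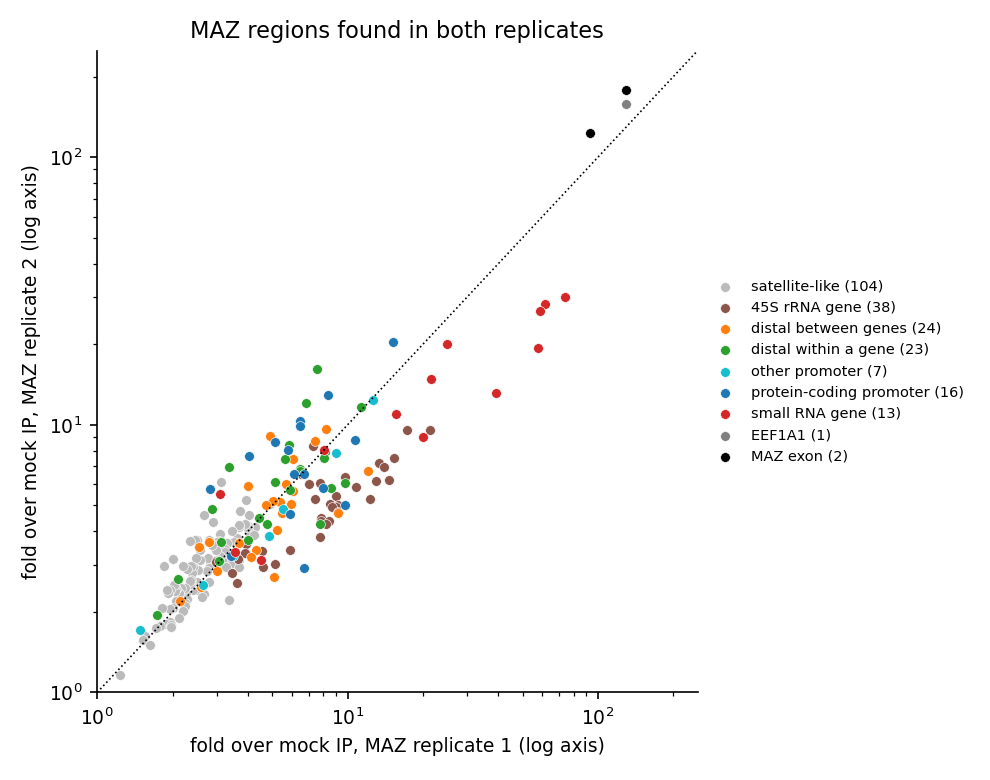
Fold over mock IP in MAZ replicate 1 (x axis, log) and replicate 2 (y axis, log) for each of the 228 regions found in both replicates, coloured by class with the number of regions in brackets; the dotted line marks equal folds. Small RNA and 45S rRNA regions sit mostly below the line, with 12 of 13 and 34 of 38 higher in replicate 1, while the MAZ exon and EEF1A1 points sit above it.

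The strongest regions outside the plasmid's own sequences were small nuclear and other short structural RNA genes. U1 RNA pairs with the 5′ splice site, and its genes led the list: RNU1-2 had folds of 74.08 and 30.05 in replicates 1 and 2. At RNU1-4 the folds were 61.32 and 28.19. At RNU1-27P they were 58.55 and 26.67. RN7SL1, the RNA scaffold of the signal recognition particle, had folds of 57.71 and 19.4. SNORD3A, the U3 RNA that guides processing of the rRNA precursor, had folds of 25.04 and 19.98. All 5 were higher in replicate 1, by 1.25 to 2.97 times, and each was far above the median fold of its list, 4.3 in replicate 1 and 4.57 in replicate 2.

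At several of these genes the region matched the gene's own ends. RNU1-2, RNU1-4 and RNVU1-29, each 164 bp long, lay in regions that began at the first base of the gene and ended 11 or 12 bp past its last. The RNU1-27P region began 2 bp before its gene and ended 11 bp past it. The RN7SL1 region began 2 bp before a gene of 299 bp and ended 21 bp past it. RPPH1, the RNA of ribonuclease P, was covered whole as well, from 4 bp before the gene's lower coordinate to 14 bp past its upper one. The SNORD3A region covered 212 bp, 30.3% of an annotation of 699 bp. At these genes the summits of both replicates lay inside the gene rather than upstream of it. The 4 U1 genes have the same 164 bases, without a mismatch, so reads within them fit several places and the peaks are not independent of each other.

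The other 8 small RNA regions fall outside the rule for named regions and are listed for completeness. RN7SK, whose RNA holds the elongation factor P-TEFb inactive, had folds of 21.64 and 14.8. RNVU1-29, a U1 variant gene, had folds of 39.29 and 13.13. RNU2-2P, a U2 RNA gene beside WDR74, had folds of 15.58 and 10.94. RPPH1 had folds of 20.03 and 9.011. RNA5S7, one of the tandem 5S rRNA genes, had folds of 4.492 and 3.117. At the region beside MIR3175, which is also the CHD2 promoter, both were near 8 (8.057 and 8.042). A region at a U2 gene on chromosome 17 had folds of 3.555 and 3.358, with both summits outside the gene. The region between the tRNA genes TRE-CTC1-5 and TRG-TCC2-5 was the only one of the 13 higher in replicate 2, at 3.082 and 5.529.

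None of these small RNA regions was MAZ's alone. Peaks of 4 to 27 other ZFPs lay at each of the 13, with 11 regions shared by 10 or more. At RNU1-2 the folds of other lists ran from 6.96 to 75.9. By the lower fold of its 2 lists MAZ ranked first at SNORD3A, second at RN7SL1 behind CISD1, at rank 3 at RNU1-2 and RNU1-4, at rank 6 at RNU1-27P and at rank 7 at RNVU1-29.

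**Figure D2:**
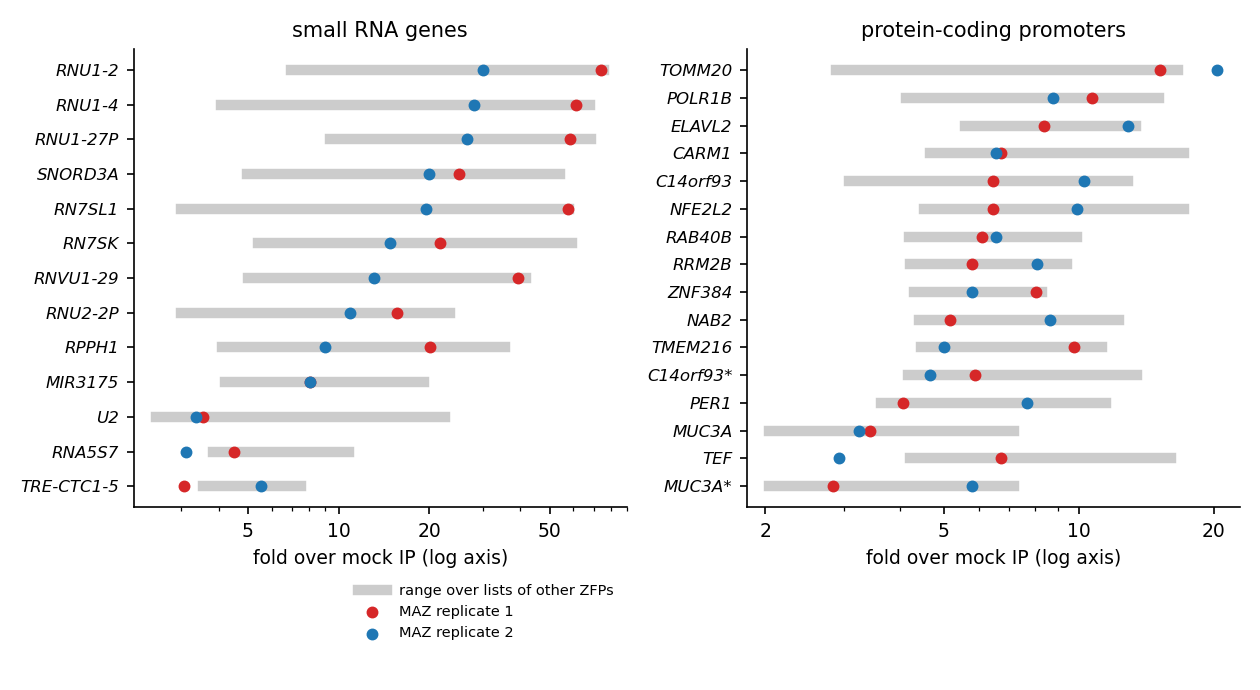
Fold over mock IP (x axis, log) at the 13 small RNA regions (left) and the 16 protein-coding promoter regions (right) found in both replicates, each row 1 region; red and blue points are MAZ replicates 1 and 2, grey bars run from the lowest to the highest fold among the lists of other ZFPs with a peak there, and an asterisk marks a gene's further region. MAZ lies within the grey range at most rows, above it in replicate 2 at TOMM20 (20.37 against a highest other fold of 16.6), and below it in 1 replicate at RNA5S7, TRE-CTC1-5 and TEF.

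The 45S rRNA gene encodes the precursor of 18S, 5.8S and 28S rRNA, and hg38 holds several copies of it. The RefSeq gene aligned to 9 places at identities of 99.06% or more, and 8 of them carried MAZ regions of both replicates. Of the 38 regions, 28 had the replicate 1 summit in 28S, 8 in 18S and 2 in the 5′ external spacer. None lay in 5.8S or in an internal spacer. The 18S and 28S parts together make up 51.9% of the 13351 bases of the unit and held 36 of the 38 summits.

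Copies showed the same profile along the unit. In 18S the summits of all 8 regions lay between bases 4808 and 4842 of the unit, with folds from 7.733 to 13.93 in replicate 1 and from 3.817 to 6.939 in replicate 2. In 28S the highest folds stood toward its 3′ end, between bases 12072 and 12118, where the strongest region reached 21.26 and 9.552. Still nearer that end, regions with replicate 1 summits between bases 12655 and 12837 stayed at or below 5.916 in replicate 1. Regions nearer the 5′ end of 28S, with replicate 1 summits between bases 8193 and 8812, stayed at or below 6.514 in replicate 1. The 5′ spacer regions had folds of 3.439 and 2.985 in replicate 1 and of 2.799 and 3.087 in replicate 2. Since the copies are nearly identical, reads fit several of them and the 8 places are not 8 separate observations.

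**Figure D3:**
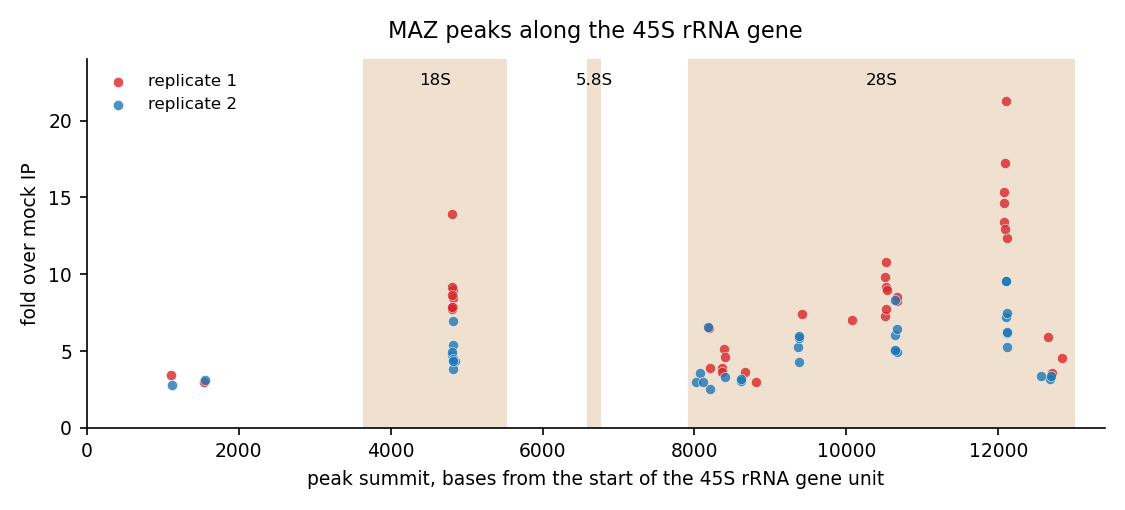
Fold over mock IP (y axis) against the summit's distance in bases from the start of the 45S rRNA gene unit (x axis) for the 38 MAZ regions on rRNA gene copies; red is replicate 1, blue is replicate 2, and shaded bands mark 18S, 5.8S and 28S. Summits gather at 1 place in 18S and at several in 28S, and none falls in 5.8S. The highest fold, 21.26, lies toward the 3′ end of 28S, with lower folds still nearer that end.

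Other ZFPs had peaks on the same gene in 66 of the 72 lists, counting those of MAZ. Of the rRNA gene peaks, 91.8% in MAZ replicate 1 and 70.0% in replicate 2 had summits in 18S or 28S. In the 57 other lists with at least 10 such peaks the share ran from 6.25% to 100% with a median of 61.2%. Each of the 38 MAZ regions held peaks of 16 to 30 other ZFPs, and MAZ was first by fold at none.

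At protein-coding promoters the folds were lower and the replicates were more even: 7 of 16 regions were higher in replicate 1 and 9 in replicate 2. Median folds were 6.443 and 7.099. TOMM20, which encodes an import receptor of the outer mitochondrial membrane, was the strongest, with folds of 15.21 and 20.37 at a region 34 bp from the TSS. MAZ ranked first of all ZFPs with peaks in both lists there, ahead of ZNF593 at 10.8. POLR1B, a core subunit of RNA polymerase I, followed with 10.69 and 8.759.

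ELAVL2, a neuronal RNA-binding protein gene, had folds of 8.371 and 12.87 and peaks of only 4 other ZFPs. CARM1, an arginine methyltransferase gene, had 6.698 and 6.533. NFE2L2, which encodes the oxidative stress regulator NRF2, had 6.439 and 9.906. ZNF384, itself a zinc finger gene, had 8.013 and 5.793, and MAZ ranked first there too. The remaining named promoters were those of C14orf93 with 2 regions, RAB40B, RRM2B, NAB2 and TMEM216, with folds from 5.152 to 9.784 in replicate 1 and from 4.653 to 10.29 in replicate 2. NAB2 encodes a corepressor of EGR factors and RRM2B a ribonucleotide reductase subunit induced by p53. The 4 weakest promoter regions, at PER1, MUC3A (2 regions) and TEF, had a lower fold of 4.05 or less.

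At promoters of genes that are not protein-coding, 7 regions were found in both replicates. A region of 773 bp at a long non-coding gene on chromosome 15 had folds of 12.63 and 12.42, and MAZ ranked first there. A region 311 bp from a non-coding TSS near FLYWCH1 had folds of 9.013 and 7.84, below those of CTCF at 13.24 and 10.12. A region on chromosome 21 had folds of 5.547 and 4.851, and another on chromosome 11 had 4.834 and 3.858.

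Distal regions within genes included 3 in introns of DHRSX, a gene of the pseudoautosomal part shared by chromosomes X and Y. The strongest, at chrX:2457332-2458243, had folds of 11.29 and 11.69, and MAZ ranked first there. The next, at chrX:2463934-2465188, had 6.817 and 12.1, and another, outside the rule for naming, had 7.727 and 4.244. Regions in SLCO5A1, a transporter gene, LMTK3, a kinase gene, and ACSL3, a fatty acid activation gene, had lower folds of 6.439 to 7.938. MADCAM1, which encodes an adhesion molecule of gut venules, had folds of 7.52 and 16.11. Between genes, a region of 2220 bp on an unlocalised contig of chromosome 17 had folds of 8.215 and 9.636 and peaks of 26 other ZFPs. A region on chr15:84344495-84344734 had folds of 12.03 and 6.725. Those on chr17:24421411-24421579 and chr21:6369366-6370923 had lower folds of 6.049 and 5.677.

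Of the 83 regions, 19 (22.9%) were mostly single-copy sequence, and 14 of these were protein-coding promoters. Each region was cut into overlapping words of 32 bases, and each word was counted in hg38 without alternate contigs. At 14 of the 16 protein-coding promoters at least 90% of words occurred once, against 90.6% of regions within 1 kb of a protein-coding TSS found in both lists of the other ZFPs. Of the 67 regions elsewhere (small RNA, other promoters and distal), 5 did so (7.46%). Among the other ZFPs' regions farther from a protein-coding TSS the share was 15.9%, rRNA and satellite-like regions left out there too. The other ZFPs' regions were split by that distance alone, while MAZ regions at small RNA genes count as elsewhere at any distance. Some of these, such as RNU1-4, RN7SL1 and RN7SK, lay within 1 kb of a protein-coding TSS, so the 2 splits are not the same. The 5 MAZ regions lay at RPPH1, MIR3175, FLYWCH1, LMTK3 and near RNU6ATAC, and they are named after their values were seen. Median word copies were 13 at RNU1-2, 30 at RNA5S7, 23 in GALNT9 and 2 in the DHRSX regions. A peak in such sequence shows that 1 or more of the copies were enriched, and does not show which.

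**Figure D4:**
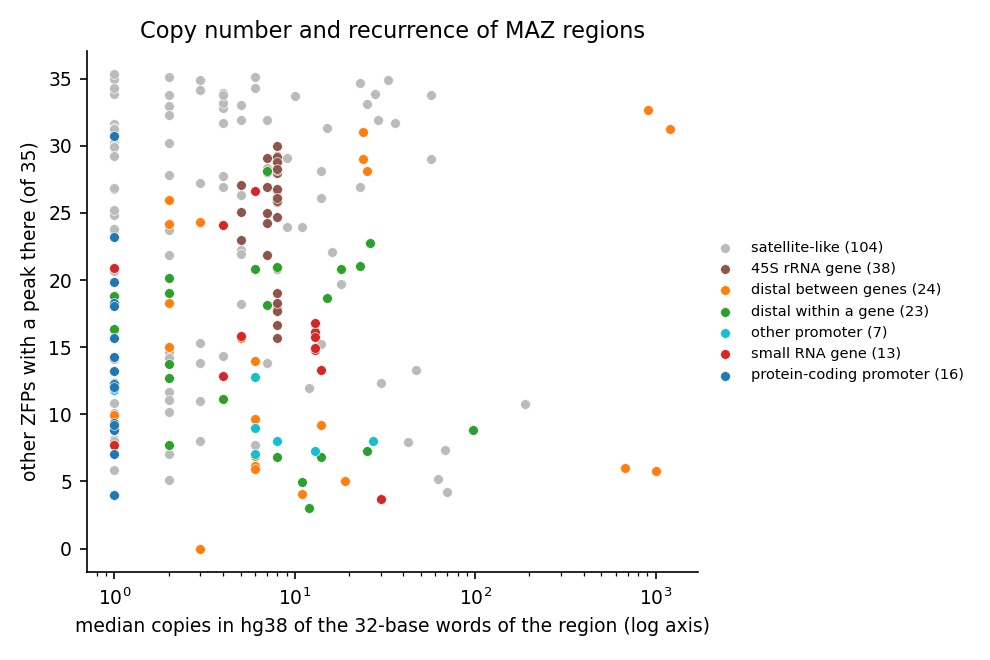
Median number of copies in hg38 of the 32-base words of a region (x axis, log) against the number of the 35 other ZFPs with a peak there (y axis, points shifted slightly to limit overlap) for the 225 MAZ regions found in both replicates. Protein-coding promoters all sit at a median of 1 copy, rRNA regions between 5 and 8, and 1 region sits at 0 other ZFPs.

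Most MAZ regions recurred in the lists of other ZFPs. The 83 regions outside rRNA and satellite-like DNA had peaks of a median of 13 other ZFPs, and 54 of them had peaks of 10 or more. Among regions found in both lists of the other ZFPs the share with 10 or more further ZFPs was 32.8%, and the share with no further ZFP was 4.5%, against 1 of the 83 for MAZ. These 7507 regions are pooled, so a place counts once for each ZFP and long lists weigh most, such as APEX2 with 1305 and CISD1 with 996. Every share of the other ZFPs' regions given here is pooled in this way. A ZFP with about as many regions as MAZ was not compared alone. MAZ ranked first by lower fold at 12 of the 83. Only 78 of the 83 had another ZFP with peaks in both lists, and at the rest MAZ ranked first without a competitor. Of the regions seen in 1 replicate, 212 of the 724 in replicate 2 alone and 27 of the 98 in replicate 1 alone had no peak of another ZFP. The same share for regions in 1 list of the other ZFPs was not computed, so these counts cannot be called particular to MAZ.

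By the share of the 83 MAZ regions with a peak in both lists of another ZFP, ZNF593 came first. It had peaks in both lists at 55 of the 83 regions (66.3%). In turn, 52 of its own 181 regions found in both (28.7%) overlapped a MAZ region. GIN1 followed with 54 (65.1%) and CISD1 with 48 (57.8%), and in turn 9.76% and 4.82% of their own regions overlapped a MAZ region. ZNF593 also had the highest lower fold among other ZFPs at 19 of the 83 regions, and CISD1 at 18. The likeness was measured over shared presence at 83 regions and is a description. At regions seen in MAZ replicate 1 alone, the list that held the ZNF593 exon peak, ZNF593 peaks lay at 24.5% and ranked 8th of 35 ZFPs. At regions seen in replicate 2 alone they lay at 31.2% and ranked after only CISD1 and ZNF574.

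Overlap with CTCF peaks was asked because of the reported partnership. Of the 83 regions, 36 (43.4%, exact 95% interval 32.5 to 54.7) overlapped a peak of either CTCF list, against 38.8% of regions found in both lists of the other ZFPs. With CTCF peaks found in both CTCF replicates the numbers were 14 (16.9%) and 15.4%. At protein-coding promoters 11 of 16 overlapped (68.8%, interval 41.3 to 89.0). Among the other ZFPs' regions within 1 kb of a protein-coding TSS the share was 46.6%, with small RNA genes not split off there. With CTCF peaks found in both CTCF replicates, 3 of the 16 overlapped (18.8%, interval 4.05 to 45.6). The matching promoter share for the other ZFPs was not computed. All intervals cover counting error only.

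Where both proteins had peaks in both of their lists, neither was regularly the higher. At CARM1 the CTCF folds of 17.17 and 14.25 exceeded those of MAZ. At NFE2L2 CTCF had 10.96 and 9.769, the first above and the second just below MAZ. At RN7SL1 CTCF had 7.447 and 9.132, both far below MAZ. With replicates paired by number, CTCF was higher in both at 4 of these 14 regions and MAZ was higher in both at 2. At the other 8 the order changed between replicates. The numbers mark no stated batch, so another pairing could change this split. Of the 8 regions that the rule for naming takes here, repeats included, 5 lay on the rRNA gene and the others at RN7SL1, near FLYWCH1 and at CARM1; NFE2L2 was named as a promoter. The CTCF core pattern stood within 100 bp of a peak summit in 2 of the 83 regions, C14orf93 and NFE2L2, both protein-coding promoters. It stood in 3.07% of windows of 100 bp to each side of protein-coding gene starts. The windows at the summits of both replicates cover more sequence than the window of a gene start.

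The MAZ word stood within 100 bp of the summit of the replicate with the lower q in 14 of the 83 regions (16.9%). At protein-coding promoters it was in 5 of 16 (31.2%, interval 11.0 to 58.7), namely POLR1B, CARM1, ZNF384, NAB2 and TEF, against 21.8% of protein-coding gene starts. With the windows of both summits, which cover more sequence than the 1 window of a gene start, C14orf93, NFE2L2 and RAB40B held it too, giving 8 of 16 (50%). TOMM20, the strongest promoter, had none in either. At distal regions it was in 7 of 47. GALNT9 held it 4 times in repeats of 45 bp that were 100% alike, and MADCAM1 held it 3 times in repeats of 66 bp that were 80% alike, as the sequences above show. GALNT9, chosen for this after its values were seen, had folds of 5.835 and 8.435. None of the 104 satellite-like regions held the word.

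Satellite-like regions were many but weak, with median folds of 2.569 and 2.95 and 71 of 104 higher in replicate 2. The strongest, at chr1:143194939-143195735, had folds of 4.908 and 5.061 and peaks of 32 other ZFPs. Another on chromosome 10 had 4.261 and 4.165, and one on an unplaced contig had 4.056 and 4.602. Of the 104, 34 lay on chromosome 4, 14 on chromosome 1 and 11 on chromosome 10.

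Genes were few. A TSS within 1 kb of a MAZ peak was found for 54 protein-coding genes in replicate 1 (0.27% of 20020), 227 in replicate 2 (1.13%) and 21 at regions of both (0.105%). Of 8 gene lists, 7 had no member found in both replicates. None of the 8 reported MAZ target promoters, the 25 immediate early genes or the 39 HOX genes was near a peak in either replicate. Heat shock chaperones gave HSPD1 and HSPE1, which share a promoter, in replicate 1 and DNAJB1 in replicate 2. Cohesin and insulator factors gave ESCO1, GC-box and MAZ-like zinc fingers gave SP1 and KLF16, and replication-dependent histones gave H2AC19 and H4C3, all in replicate 2 alone. Of 86 ribosomal protein genes RPS29 was found in both, at the region on RN7SL1 next to it.

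A set of 7 shares compared MAZ with the other ZFPs, each ZFP being 1 value, the mean of its lists, with peaks on own exons and EEF1A1 left out and, for small RNA genes, CTCF and the MAZ word over all peaks, satellite-like peaks left out too. The test was a two-sided exact permutation test that put the MAZ label on each ZFP in turn, so that its smallest possible p was 0.0278 (0.0286 for CTCF), and p-values were adjusted over the 7 shares by Benjamini-Hochberg. None passed. Peaks at small RNA genes made up 7.88% ± 5.25 (SD, n = 2 lists) for MAZ and 3.67% ± 3.53 (SD, n = 35) for the others, with MAZ at rank 4 of 36 (exact p = 0.111, adjusted p = 0.632). The difference of 4.21 percentage points became 1.19 with replicate 1 of every ZFP left out, and 7.22 with replicate 2 of every ZFP left out. Replicate 1 of MAZ is the library with the ZNF593 exon peak. Leaving out a MAZ list alone was not computed, so these changes also reflect the lists of the other ZFPs.

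Peaks overlapping CTCF made up 32.4% ± 11.2 (SD, n = 2) against 23.9% ± 7.61 (SD, n = 34; exact p = 0.314, adjusted p = 0.632). The replicates differed here, with 94 of 233 peaks in replicate 1 (40.3%, interval 34.0 to 46.9) and 217 of 888 in replicate 2 (24.4%, interval 21.6 to 27.4). Peaks on the 45S rRNA gene were kept in these shares, and the lists held 49 and 80 of them. Of the 38 rRNA regions found in both MAZ replicates, 33 (86.8%) overlapped a peak of either CTCF list. The intervals treat peaks on nearly identical rRNA copies as separate observations. The difference of 8.5 percentage points became 0.854 with replicate 1 of every ZFP left out and 16.1 with replicate 2 of every ZFP left out. It became 5.84 with peaks on the 45S rRNA gene left out, an alternative chosen after seeing the data. The MAZ word stood in 16.3% ± 0.608 of peaks (SD, n = 2) against 13.3% ± 6.3 (SD, n = 35; exact p = 0.778, adjusted p = 1.0). Among peaks near a TSS it stood in 24.2% in each MAZ list, against 19.0% ± 5.92 in the others (SD, n = 35; exact p = 0.361, adjusted p = 0.632).

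MAZ had 27.5% ± 2.38 of peaks within 1 kb of a TSS (SD, n = 2) against 33.2% ± 23.7 (SD, n = 35; exact p = 0.889, adjusted p = 1.0). That difference of -5.67 percentage points became 0.548 with replicate 1 of every ZFP left out. Satellite-like peaks made up 27.1% ± 13.6 (SD, n = 2) against 27.4% ± 18.7 (SD, n = 35; exact p = 1.0, adjusted p = 1.0). The differences were -10.4 with replicate 1 of every ZFP left out and 9.83 with replicate 2 of every ZFP left out. Of the shorter list, 62.8% was found in the other replicate, against 44.8% ± 20 (SD, n = 35; exact p = 0.361, adjusted p = 0.632). A single share at the smallest possible p would still miss the threshold after adjustment over 7, so these p-values do not show that MAZ and the others are alike.

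**Figure D5:**
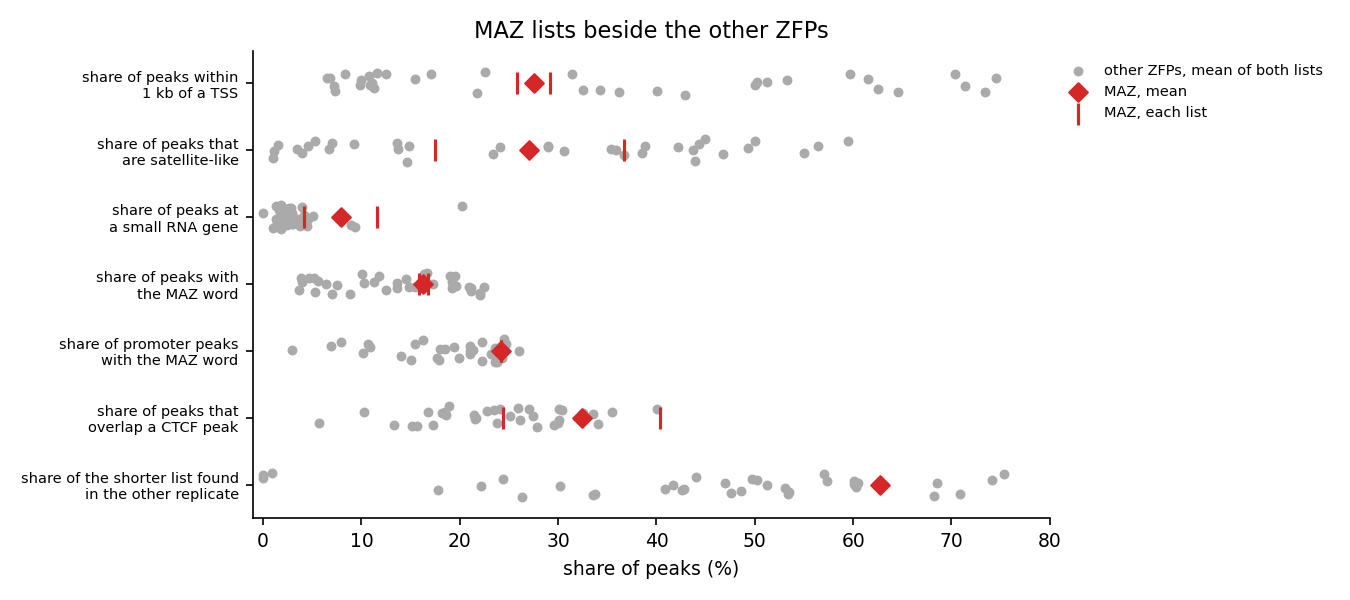
Share of peaks in percent (x axis) for each of the 7 measures (rows); grey points are the other ZFPs (mean of both lists), the red diamond is the MAZ mean and red ticks are the MAZ lists (the share found in the other replicate has none). The diamond lies inside the grey range in every row, nearest to its upper end for promoter peaks with the MAZ word (24.2%).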

How the data were processed

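Cut&Run was done with 1 well per replicate. The authors used Trimmomatic 0.36 for trimming, Bowtie2 2.3.5.1 for alignment (hg38) and Picard 0.1.8 for removal of PCR duplicates and, for each replicate apart, ran MACS2 2.2.7.1 against the mock IP of the same batch at FDR 0.05. Their deposited lists give fold enrichment over the mock IP (a ratio), −log10 p, −log10 q and a summit. The deposited score column, 10 times −log10 q cut to whole numbers by MACS2, entered no result. The lists give no read counts, so depth is unknown; the 2 mock IP samples have no file here. Reads that fit several places are assigned by the aligner, which affects repeats most.

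Whole peaks and merged regions were annotated with GENCODE 44 and RefSeq tRNA and rRNA genes, and distance to a TSS was taken from the nearest edge. Pentamers, the MAZ word, the CTCF core pattern and the part of the rRNA gene were read at summits. Copies of the 45S gene were found with minimap2 2.31-r1302. Region classes were taken in the order MAZ exons, EEF1A1 (2 kb each side), 45S rRNA, satellite-like, small RNA (250 bp each side), promoters and distal; the 45S class was added after seeing the data. Regions were named by the highest lower fold of the 2 lists in each class, the first 12 protein-coding promoters, 5 small RNA genes, 4 other promoters, 6 and 5 distal regions and 3 satellite-like, with up to 8 overlapping CTCF and up to 8 in no other list. Python 3.11.15, pandas 2.3.3 and scipy 1.17.1 were used, and scripts were tested on simulated data. Members and lists were chosen with earlier results of these data known. A region that the naming rule takes is not reported here.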

Additional observations from a re-analysis of the deposited data

How the results depend on the processing

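No share passed the adjusted threshold under any of the 65 alternative tests (smallest adjusted p = 0.2, exact permutation test, in a design where 1 share alone cannot pass), and 59 kept their direction. The difference between MAZ and the others, in percentage points, turned sign for satellite-like peaks with only peaks found in both replicates (4.2) and without 45S rRNA peaks (1.45, an alternative chosen after seeing the data), and for the MAZ word with the 100 peaks of lowest q per list (-1.98 in all peaks, -8.22 near a TSS). The cause was not tested. Leaving out 1 replicate of every ZFP gave -11.9 to 0.548 for peaks near a TSS, -10.4 to 9.83 for satellite-like peaks, 1.19 to 7.22 for small RNA genes and 0.854 to 16.1 for CTCF overlap, where replicate 1 alone had an unadjusted exact p of 0.0286. The replicate block, which subtracts the mean of lists of the same number, left the differences at 4.21 for small RNA genes and 8.5 for CTCF overlap and changed no call, since every ZFP has both numbers. The numbers mark no stated batch.

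The count of 225 regions ran from 156 (50% reciprocal overlap) to 213 (q of at most 0.01). Overlap with CTCF fell from 36 to 14 regions with CTCF peaks found in both CTCF lists and rose to 91 with rRNA and satellite-like regions counted (chosen after seeing the data). The MAZ word fell from 14 regions to 9 with 50 bp to each side and to 3 with GGGGAGGGG, and rose to 17 with either replicate's window (chosen after seeing the data). The both-replicate counts could not be run without a replicate. Depth is unknown, so regions of 1 list may be missing from the other for lack of reads, which was not tested.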
